A study of Bos taurus with 3 samples.

Results

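The genes described are the 3 RUNX transcription factors RUNX1, RUNX2 and RUNX3, their shared partner CBFB, the osteogenic transcription factors SP7, MSX1, MSX2 and DLX5, and the bone enzyme gene ALPL, in cultured bovine fetal fibroblasts. They were taken by symbol from a table of read counts, where 9 of 9 had a row among 31903 listed genes. The set was chosen by symbol with the read counts of these same libraries known, the high count of RUNX2 beside low counts of other bone regulators included, so the levels below are a description and carry no test. The cells, named BFF116, supply the nuclei for cloning by somatic cell nuclear transfer, and the 1 group held 3 biological replicates of 70000 cells each, frozen after 48 h of serum starvation, which synchronizes the cell cycle. No allele, transgene or agent is named in the labels, no unstarved cells and no bone cells were measured, and nothing in the labels ties the replicates to separate animals or cultures, so part of their spread may be technical.

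RUNX proteins bind DNA through the Runt domain, and CBFB, which does not itself contact DNA, joins them as a heterodimer and strengthens that binding. RUNX2 is required for mesenchymal cells to become osteoblasts, and SP7, also called osterix, acts after it in the same lineage. RUNX1 is best known for its role in blood formation and RUNX3 for roles in T cells and sensory neurons. MSX and DLX proteins are homeobox factors of the developing skull, jaw and limbs, and ALPL encodes the tissue-nonspecific alkaline phosphatase, which removes an inhibitor of mineral deposition and is a standard marker of osteoblasts.

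Replicates 1, 2 and 3 held 8608350, 4842331 and 7122651 reads on genes, which makes replicate 2 the shallowest. Levels are CPM, reads scaled to a common library size with edgeR's TMM factors, given as mean ± SD of the 3 replicates, and measured below stands for 1 CPM or more in each of the 3 libraries. A gene with 0 reads could be present at up to 0.605 CPM in the shallowest library, the level that 3 reads would give there. This limit and the intervals below cover counting error only. Transcript lengths were not used here, so a ratio between 2 genes is a ratio of their reads and also carries their lengths. The 14 fibroblast markers were all measured, led by the collagen gene COL3A1, whereas 0 of 8 epithelial markers were, and their summed level was 1.90 to 4.63 CPM.

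RUNX2 was the 1 member with a high read count in every library. Of the 9 genes 4 were measured (RUNX2, CBFB, RUNX1 and MSX2), beside 34.6% of all listed genes and 61.2% of genes with a read. These shares stand beside the counts of every list below as well. The other 5 were SP7, MSX1, ALPL, RUNX3 and DLX5, with 26, 13, 2, 2 and 0 reads over all libraries together. The lowest measured member, MSX2, stood at 19.9 ± 2.72 CPM and SP7, the highest below the threshold, at 1.56 ± 1.80, so no member lay close above it. The count was also 4 at 10 or more reads in every library.

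**Figure D1:**
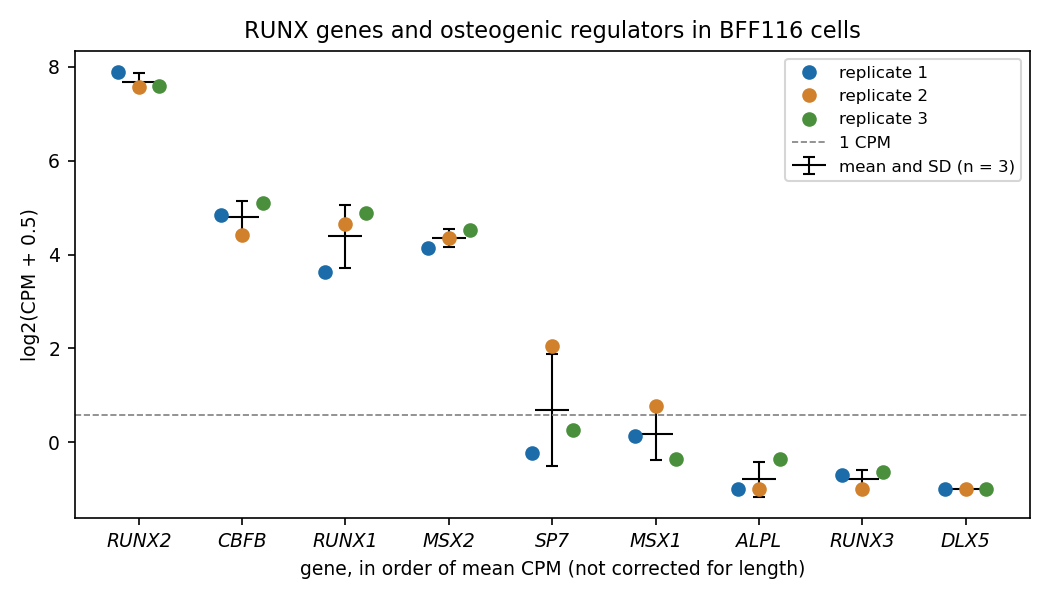
Level of each gene as log2(CPM + 0.5) in the 3 replicates (coloured points) with the mean and SD (black, n = 3), in order of mean CPM and not corrected for length; the dashed line marks 1 CPM. RUNX2 lies above every other gene in each replicate, CBFB, RUNX1 and MSX2 overlap one another, and SP7 and MSX1 cross the line in replicate 2 alone.

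Among the RUNX genes, RUNX2 held most of the reads. It had 1992, 942 and 1360 reads in replicates 1 to 3, or 237, 189.8 and 191 CPM, a mean of 206 ± 26.6. Replicate 1 was the highest and the other two were nearly equal. By mean CPM RUNX2 ranked 773 of all listed genes, at the 95.7th percentile of genes with a read. RUNX1 had 100, 122 and 207 reads, or 11.9, 24.6 and 29.1 CPM (21.9 ± 8.94), with replicate 1 the lowest where RUNX2 was the highest. RUNX3 had 1, 0 and 1 reads, at or below the limit that 0 reads allows.

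Within each library RUNX2 took 95.2, 88.5 and 86.7% of the reads on the 3 RUNX genes (90.1% ± 4.45, n = 3), a quantity that needs no library scaling. The share of RUNX1 was 4.78% in replicate 1 (exact Clopper-Pearson 95% interval 3.90 to 5.78), 11.5% in replicate 2 (9.61 to 13.5) and 13.2% in replicate 3 (11.6 to 15.0). The interval of replicate 1 did not overlap those of the other replicates, while those of replicates 2 and 3 overlapped. On the log2 scale the CPM of RUNX2 was higher than that of RUNX1 by 3.29 ± 0.85, with RUNX2 higher in 3 of 3 libraries. The ratio of reads of RUNX2 over RUNX1 was 19.9 in replicate 1, 7.72 in replicate 2 and 6.57 in replicate 3. Gene length does not enter a change of this ratio between libraries if the same transcripts were read. Over RUNX3 the ratio of summed reads was 2147, with a 95% interval of 594 to 17734 that reflects the 2 reads of RUNX3.

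CBFB, the partner of all RUNX proteins, had 239, 104 and 240 reads, or 28.4, 21.0 and 33.8 CPM (27.7 ± 6.43). For each 100 reads on the RUNX genes there were 11.4 reads of CBFB in replicate 1 (95% interval 9.95 to 13.1), 9.77 in replicate 2 (7.91 to 12.0) and 15.3 in replicate 3 (13.3 to 17.5). Replicate 3 was thus the highest, by more than the counting error. The log2 CPM of RUNX2 exceeded that of CBFB by 2.89 ± 0.36, in 3 of 3 libraries. CBFB was above MSX2 in 3 of 3 libraries. RUNX1 changed places with both, since it was lowest of the 3 in replicate 1 and highest in replicate 2, so its place in the order by mean does not exceed the spread.

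**Figure D2:**
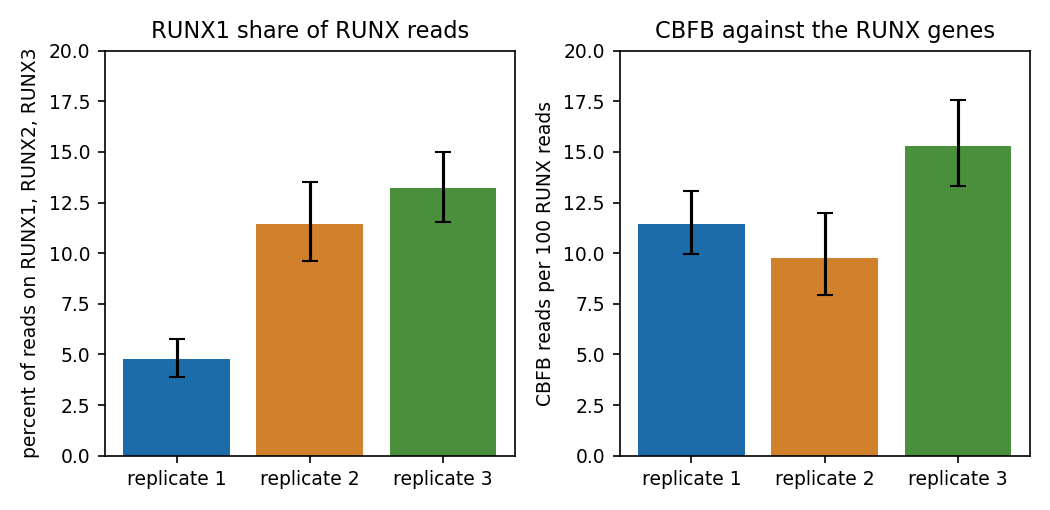
Left, RUNX1 reads as a percent of the reads on RUNX1, RUNX2 and RUNX3 in each replicate; right, CBFB reads per 100 reads on those 3 genes; bars start at 0 and error bars are exact 95% intervals for counting error. The RUNX1 share was 4.78% in replicate 1 against 11.5 and 13.2% in the others, and CBFB was highest in replicate 3 at 15.3.

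SP7, which follows RUNX2 in osteoblast formation, had 3, 18 and 5 reads, or 0.356, 3.63 and 0.704 CPM. Replicate 2 alone passed 1 CPM and held 18 of the 26 reads although it was the shallowest library. RUNX2 had 165 reads for each SP7 read over all libraries (95% interval 113 to 253). This ratio rests on replicate 2, since it was 419 without it and 100.1 without replicate 1. Within single libraries it was 664, 52.3 and 272, and the interval of replicate 2 (32.9 to 88.7) lay below those of replicates 1 (227 to 3223) and 3 (116 to 839). Mean SP7 CPM was 0.523 without replicate 2.

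The homeobox pair MSX1 and MSX2 differed in their reads. MSX2 had 145, 99 and 161 reads, or 17.2, 19.9 and 22.7 CPM (19.9 ± 2.72), and varied little over the libraries. MSX1 had 5, 6 and 2 reads, or 0.594, 1.21 and 0.281 CPM. For each MSX1 read there were 31.2 MSX2 reads over all libraries (95% interval 18.0 to 59.0), and 29.0, 16.5 and 80.5 in replicates 1 to 3 (the last rests on 2 MSX1 reads). RUNX2 exceeded MSX2 by 3.34 ± 0.36 in log2 CPM, in 3 of 3 libraries, and had 330 reads for each MSX1 read (193 to 621).

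DLX5, an activator of osteoblast genes that lies beside DLX6, had 0 reads in every library. With a floor of 3 counts per library put in its place, RUNX2 reads were at least 477-fold higher. Of the 8 genes of the DLX and MSX family 1 was measured, MSX2. DLX1 came next at 21, 12 and 7 reads, just under 1 CPM in replicate 3 (0.985), and passed when that replicate was left out. DLX2 had 1, 2 and 7 reads, DLX4 0, 6 and 1, DLX3 2, 0 and 1, and DLX6 0 in every library. The median of the family was 0.476 CPM, beside 0.134 over all listed genes and 4.96 over genes with a read.

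ALPL had 0, 0 and 2 reads. RUNX2 had 2147 reads for each ALPL read (594 to 17734), and without replicate 3, which held both reads, at least 489-fold more against the floor of 3 counts per library. Other genes of the alkaline phosphatase list, which spans phosphate release and pyrophosphate production, were also low. ENPP1, which makes the pyrophosphate that ALPL degrades, had 5, 6 and 8 reads, and it was measured only when replicate 1 was left out. ALPI, the intestinal alkaline phosphatase, and PHOSPHO1, a phosphatase of mineralizing vesicles, had 0 reads in every library, so 0 of 4 genes of this list with a row were measured.

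The reads of neighbouring genes are given from the gene order of the ARS-UCD2.0 assembly, which may differ from the build the counts were made on. Near DLX5, SEM1 (listed as SHFM1) had 635, 364 and 637 reads, while LOC100139363 had 0. Beside ALPL, USP48 had 906, 644 and 765 and ECE1 238, 125 and 202, while RAP1GAP had 0. The part of read assignment in the low counts of these members was not tested. Beside RUNX3, SYF2 had 595, 366 and 618 reads and CLIC4 4919, 2505 and 3588. SP7 lies between AAAS (31, 62 and 82 reads) and SP1 (600, 494 and 612). Beside MSX1, STX18 had 18, 37 and 51 reads while CYTL1 and STK32B had 0. RUNX2 overlaps SUPT3H, a gene of a histone acetyltransferase complex, which had 262, 150 and 307 reads, and CBFB overlaps LOC101905588 with 123, 70 and 72. The strand setting of the counting is not given in the sources used here, so reads in shared stretches cannot be assigned to 1 gene of such a pair with certainty.

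No measured member passed a test of whether its replicates spread more widely than those of other genes at its level. The test compared each gene with edgeR's dispersion trend, a negative binomial Pearson statistic with Benjamini-Hochberg adjustment over 10434 genes that had 10 or more counts in every library, and it called 2 of them, or 0.0192%. Of the members 4 could be tested and 0 were called, with 0 at an unadjusted p under 0.05, beside 5.18% of all tested genes, and 0 called with the DESeq2 trend. In the pairs that follow, SD over mean includes counting error and the trend value leaves it out, so they are unlike measures. The test itself allows for counting error. RUNX2 varied by 12.9% of its mean (SD over mean) where the trend for its level gave 22.0%, and MSX2 by 13.6% against 27.8%. CBFB varied by 23.2% against 26.0%. RUNX1 was the most variable of the 4, at 40.9% against 27.3%, with an unadjusted p of 0.12 and an adjusted p of 1.00 in edgeR. The 5 members under 10 counts in some library, SP7 among them, were left out of this test. An alternative run without that filter covered those with a read, but their values in it are not reported here.

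Upstream of RUNX2, bone morphogenetic proteins (BMPs) act through paired receptors and SMAD proteins. Of 25 genes of this pathway 18 were measured, beside 34.6% of all listed genes and 61.2% of genes with a read. The ligands were low, with BMP2 at 4.93 ± 0.488 CPM, BMP6 at 3.73 ± 1.62, BMP4 at 2.49 ± 1.24, and BMP7, GDF5 and GDF6 at 0 reads. The receptor genes BMPR2, BMPR1A and BMPR1B stood at 403 ± 109, 161 ± 38.2 and 15.3 ± 1.12. The signal transducers SMAD5, SMAD1 and SMAD9 stood at 165 ± 36.9, 26.8 ± 4.54 and 6.65 ± 2.05. Among target genes ID2 stood at 144 ± 14.0, ID3 at 33.5 ± 17.0 and ID1 at 2.76 ± 1.48. Among secreted BMP inhibitors GREM1 stood at 75.5 ± 23.7 and NOG at 0 reads. The pathway's median over its 25 genes, 4 of them at 0 reads, was 4.93 CPM. Over all listed genes the median was 0.134, and over genes with a read, which leave out those at 0, it was 4.96. Of 15 genes tested for variation 0 were called in edgeR, 1 had an unadjusted p under 0.05, beside 5.18% of all tested genes, and 0 were called with the DESeq2 trend.

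Genes for proteins that bind or modify RUNX factors were nearly all measured, beside 34.6% of all listed genes and 61.2% of genes with a read. Of the corepressors and the partners found fused to RUNX1 in leukaemia, 9 of 9 genes with a row were measured (median 22.0 CPM), led by NCOR1 at 140 ± 10.1, AES at 88.9 ± 25.4 and SIN3A at 87.3 ± 6.62. CBFA2T2 and CBFA2T3, relatives of RUNX1T1, stood at 33.9 ± 5.89 and 6.22 ± 2.58, and the Groucho-type corepressors TLE3, TLE4 and TLE1 at 22.0 ± 4.64, 11.1 ± 5.23 and 4.21 ± 0.866. RUNX1T1, the fusion partner of RUNX1, had 270, 77 and 65 reads, or 32.1, 15.5 and 9.15 CPM. It was highest in replicate 1, where RUNX1 was lowest, but its variation did not pass in edgeR (unadjusted p = 0.011, adjusted p = 0.63).

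Of the protein partners and modifiers of RUNX2 22 of 26 were measured, with a median of 38.9 CPM. Over all listed genes 34.6% were measured, and over genes with a read 61.2%. The highest were the RNA helicase DDX5 (948 ± 282), YAP1 (403 ± 196), a coactivator of the Hippo pathway, and SMURF2 (180 ± 36.4), a ubiquitin ligase. WWTR1, the relative of YAP1 also called TAZ, stood at 132 ± 10.2, and the acetyltransferases CREBBP, KAT6A and KAT6B at 158 ± 8.48, 136 ± 20.9 and 104 ± 10.4. Genes known to restrain RUNX2 were also measured, among them TWIST1 at 74.3 ± 7.89 and ZNF521 at 40.5 ± 6.87. HDAC4, a deacetylase that restrains RUNX2 in cartilage, had 4, 3 and 22 reads, HEY1 1, 14 and 12 and WWOX 7, 11 and 10, each below 1 CPM in some library, and HEY2 had 0. The deacetylase gene SIRT1 was at 106, 44.1 and 35.7 CPM in replicates 1 to 3 and YAP1 at 611, 377 and 221, both highest in replicate 1. Neither passed in edgeR, with unadjusted p of 0.0015 and 0.0056 and adjusted p of 0.28 and 0.46. Of 20 genes tested for variation 0 were called in edgeR, 3 had an unadjusted p under 0.05, beside 5.18% of all tested genes, and 0 were called with the DESeq2 trend.

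Other transcription factors of the osteoblast lineage were measured in 26 of 37 cases, beside 34.6% of all listed genes and 61.2% of genes with a read. Their median was 8.27 CPM. The 3 highest were PRRX1 (795 ± 131), a homeobox factor of limb and skull mesenchyme, ATF4 (714 ± 45.1), which also serves the amino acid stress response, and CTNNB1 (497 ± 19.0), the gene of beta-catenin. RUNX2 ranked 4 by mean CPM when placed among these genes and the DLX and MSX family, 46 genes in all. MEF2C was at 2.68 ± 0.676, and ZBTB16, ALX4 and NKX3-2 had 0 reads. JUNB had 91, 127 and 345 reads and an unadjusted p of 0.0018 (adjusted p = 0.28 in edgeR). It was the 1 gene of 25 tested with an unadjusted p under 0.05, a share near the 5.18% of all tested genes, and 0 were called in edgeR or with the DESeq2 trend.

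**Figure D3:**
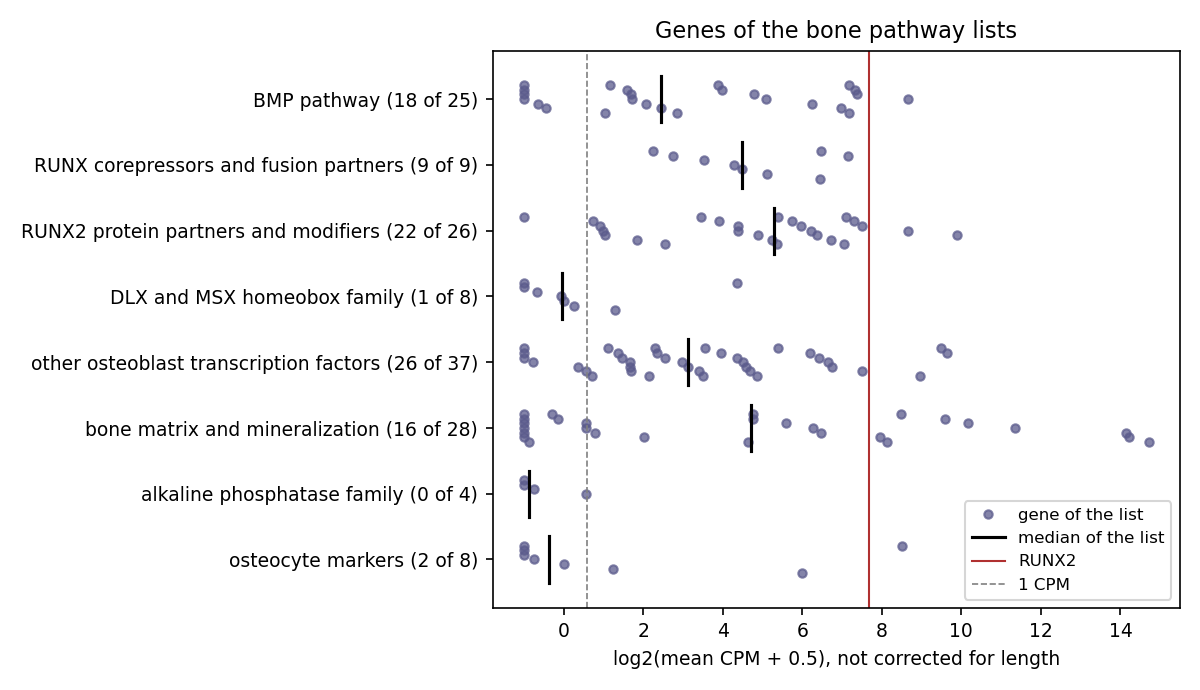
Mean level of each gene of 8 bone pathway lists as log2(mean CPM + 0.5), not corrected for length, with each list's median (black bar), RUNX2 (red line) and 1 CPM (dashed line); brackets give measured genes of those with a row. Partners of RUNX factors sit mostly above 1 CPM (9 of 9 and 22 of 26), while the DLX and MSX family (1 of 8) and the alkaline phosphatase list (0 of 4) sit mostly below it.

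Genes of bone matrix and mineralization covered the widest range of read counts among the bone lists. The list had 16 of 28 genes measured (median 25.6 CPM), beside 34.6% of all listed genes and 61.2% of genes with a read. It was led by COL1A2 (26737 ± 2306), COL1A1 (19062 ± 3563) and SPARC (17923 ± 1626). The first 2 are also in the fibroblast marker list. Collagen-processing genes were measured too, with the chaperone gene SERPINH1 at 771 ± 142 and the prolyl isomerase gene FKBP10 at 359 ± 67.2. Of the genes named for bone, OGN had 15165, 4246 and 5475 reads, highest in replicate 1 (unadjusted p = 0.0024, adjusted p = 0.32 in edgeR), and OMD, the gene of osteomodulin, stood at 26.7 ± 4.10. MGP, the gene of matrix Gla protein, which inhibits calcification, had 6, 1 and 2 reads.

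BGLAP, the gene of osteocalcin and a direct target of RUNX2, had 0, 0 and 1 reads, and IBSP, the gene of bone sialoprotein, had 0 in every library. COL10A1 and MMP13, targets of RUNX2 in hypertrophic cartilage, and TNFSF11 and TNFRSF11B, the ligand and the decoy receptor that control osteoclast formation, also had 0. SPP1, the gene of osteopontin, differed from these, with 371, 174 and 458 reads or 44.1, 35.1 and 64.4 CPM (47.9 ± 15.1). It is also made by many other cell types. PTH1R, the parathyroid hormone receptor gene, had 4, 4 and 17 reads. The phosphate carrier SLC20A1 stood at 88.5 ± 7.19 and the pyrophosphate exporter ANKH at 24.4 ± 5.72. Of 16 genes of the list tested for variation 0 were called in edgeR, 1 had an unadjusted p under 0.05, beside 5.18% of all tested genes, and 0 were called with the DESeq2 trend.

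**Figure D4:**
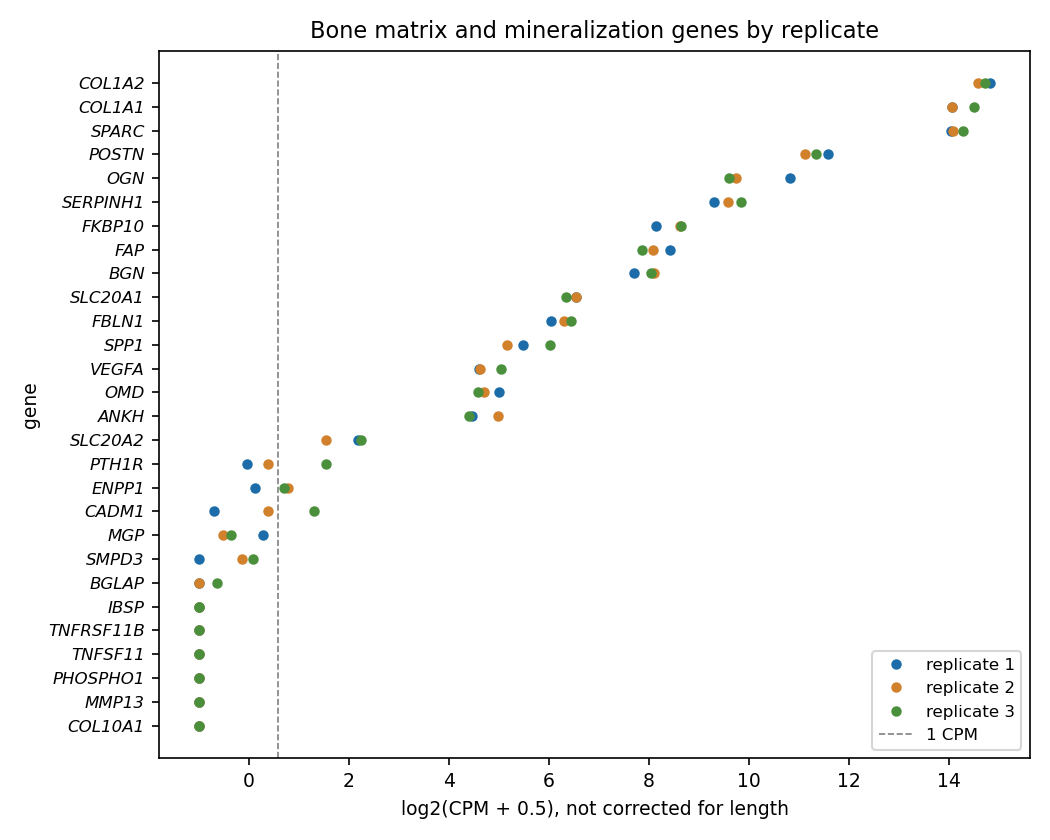
Genes of bone matrix and mineralization by replicate as log2(CPM + 0.5), not corrected for length, ordered by mean CPM; the dashed line marks 1 CPM and points at the left edge are 0 reads. The 16 genes from COL1A2 to SLC20A2 lie above 1 CPM in every replicate, and 6 genes from IBSP to COL10A1 have 0 reads in all 3.

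Markers of cell types that carry RUNX factors in other settings were set beside these values. In bulk samples fewer cells of a type and less RNA per cell cannot be told apart. Leukocyte markers, relevant to RUNX1 and RUNX3, had 3 of 17 measured, LAPTM5 (5.20 ± 2.20 CPM), CD68 (3.42 ± 1.45) and LYZ (2.77 ± 0.676), while PTPRC, SPI1, CD14, CD8A, ITGB2, TYROBP and GATA1 had 0 reads. Their summed level was 15.6, 8.26 and 19.7 CPM in replicates 1 to 3, against 11.9, 24.6 and 29.1 for RUNX1, so both were highest in replicate 3 but were lowest in different libraries. Endothelial markers had 3 of 8 measured, ERG, TEK and PECAM1, with KDR, TIE1, CLDN5 and EMCN at 0 reads. Their summed level was 19.1, 9.47 and 27.3 CPM, also highest in replicate 3. Of the measured genes only ERG was highest there, at 6.89, 3.83 and 18.3 CPM in replicates 1 to 3. TEK (7.72, 3.02 and 7.04) and PECAM1 (4.51, 2.02 and 1.41) were highest in replicate 1. The part of such cells in the RUNX1 reads was not tested.

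Of the osteocyte markers 2 of 8 were measured, CD44 (363 ± 28.7) and FGF2 (63.7 ± 13.8), neither of which is particular to bone. The defining genes SOST, DMP1 and MEPE had 0 reads, PHEX had 11, 1 and 0, and FGF23 had 0, 0 and 2. PDPN had 33, 6 and 3 reads, or 3.92, 1.21 and 0.422 CPM, and was measured when replicate 3 was left out. Cartilage markers had 2 of 16 measured, the fibrillar collagen gene COL11A1 (2123 ± 102) and SOX5 (5.28 ± 1.36). COL2A1, the main collagen of cartilage, had 0, 0 and 2 reads and ACAN 9, 1 and 3. SOX9, also on this list, had no row among the listed genes, so its level could not be given.

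By the root mean square difference of log2(CPM + 0.5) over the 3 libraries, the genes closest to RUNX2 among 31902 others were DBI (0.016), MEF2A (0.032), TNFRSF10D (0.051), RSF1 (0.051) and TTC37 (0.059). DBI, which encodes an acyl-CoA-binding protein, stood at 236, 189.6 and 195 CPM, and the transcription factor gene MEF2A at 236, 184 and 187. Over 3 libraries this measure mainly reflects the mean level. Among the 45 other genes of the transcription factor lists the closest was SP3 (0.21), a zinc finger factor of the same family as SP7, at 197, 184 and 160 CPM. It was followed by BHLHE40 (0.94), GLI3 (1.05), CTNNB1 (1.29) and SP1 (1.31), so SP3 alone of these lay within 0.5 of RUNX2.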

How the data were processed

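The authors deposited whole-number read counts per gene for 3 libraries, not normalized, with 0 columns of other samples and 5 summary rows that name no gene. By these rows 58.9 to 62.0% of reads were assigned to no counted feature and 7.52 to 7.99% aligned to several places. Whether reads without a feature fell inside or outside genes cannot be told without the strand and counting mode. Per the labels' protocols, cDNA was amplified with a single-primer isothermal method, 500 ng entered each library with 10 PCR cycles, and single reads of 100 bases were sequenced. The submitters' processing notes name HTSeq 0.6.1, TopHat2 2.0.10 and bcl2fastq 2.18.0.12. The genome build, annotation, strand and counting mode were not given in the sources used here.

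From the deposited counts, CPM was computed with edgeR 4.0.16 in R 4.3.3 (TMM). Log2 levels are log2(CPM + 0.5). The planned scaling by length could not be made, because the reference table gives gene spans that include introns, so ratios are of reads, with exact 95% binomial intervals (scipy 1.17.1). Variation between replicates was tested with edgeR's trended dispersion (chi-square with 2 degrees of freedom), with DESeq2 1.42.0 as an alternative. The procedure was also run on simulated data, and the outcome is not reported here. Of 237 listed genes in 16 lists beside the members, 226 had a row, 2 of these matched through an older symbol or a gene ID. Named were all members, the 3 highest genes of each bone list, measured genes where 4 or fewer, genes at 0 reads, the 5 genes most like RUNX2 and overlapping genes. Other genes were named for their function after their values were seen. The members and lists were chosen with earlier results of these data known. With 1 group, no comparison between conditions was made.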

Additional observations from a re-analysis of the deposited data

How the results depend on the processing

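No paired analysis was possible because the series has 1 group. Each of 45 alternative values of the members' mean levels (other scalings, or 1 replicate left out) lay within 1 SD of the value reported. The log2 differences of RUNX2 from RUNX1, CBFB, MSX2 and SP7 did so under every alternative run. With 3 replicates, leaving 1 out can hardly move a mean by 1 SD, so those alternatives were nearly fixed to pass. Mean SP7 CPM passed in this way, although it was 1.56 with all replicates and 0.523 without replicate 2. The number of measured members was 4 under each alternative except a mean of 1 CPM or more, which added SP7 and gave 5. For genes with few reads the log2 difference from RUNX2 depended on the pseudocount. At 0.1 CPM it was 10.20 for RUNX3, 8.19 for MSX1 and 10.36 for ALPL, and at 1 CPM it was 7.57 for RUNX3 and 7.57 for ALPL, against 8.46, 7.50 and 8.47 for RUNX3, MSX1 and ALPL at 0.5. Leaving out 1 replicate, the ratio of summed reads of RUNX2 over SP7 ranged from 100.1 to 419, and the number of genes called variable from 0 to 6. The ratio over ALPL was 1151 without replicate 1 and 1676 without replicate 2. Without replicate 3 no ALPL read was left, so only a lower bound of 489 could be given there. None of the 4 members tested for variation passed in any of 6 alternatives (lowest adjusted p 0.99). The alternatives for list counts were added after the data were seen. The alternative without length scaling, and that of reads per kb, were not run, since no transcript lengths were used. Depth limits SP7, MSX1, RUNX3, ALPL and DLX5, where 1 read is 0.119 to 0.202 CPM.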

Other observations

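Marker lists of the tendon, adipocyte and osteoclast lineages were also read. Of the tendon markers 4 of 7 were measured, TNC (4465 ± 708 CPM), FMOD (410 ± 60.3), EGR1 (285 ± 92.6) and the homeobox gene MKX, which regulates tendon collagen, at 220, 251 and 313 CPM in replicates 1 to 3 (261 ± 47.4). SCX and TNMD, the more restricted markers of that lineage, had 0 reads, and THBS4 had 0, 0 and 2. Adipocyte markers had 4 of 8 measured at low levels. These were LPL at 14.3 ± 4.45 CPM, FABP4 at 6.24 ± 4.11 (62, 48 and 12 reads), PLIN1 at 3.91 ± 1.76, and PPARG, the main regulator of fat cells, at 13, 7 and 23 reads. CIDEC had 10, 0 and 0 reads, ADIPOQ 1, 3 and 1, and CEBPA and LEP 0. Osteoclast markers had 1 of 8 measured, the protease gene CTSK (459 ± 81.5), while CALCR, DCSTAMP, OCSTAMP and ATP6V0D2 had 0 reads and ACP5 had 2, 0 and 4.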
